A study of Arabidopsis thaliana with 6 samples.

Results

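The transcripts described here are those of the chloroplast genome of Arabidopsis thaliana. Their table rows carry IDs that start with ATCG, and a row was taken when its TPM (a transcript level scaled for gene length and to a fixed total of 1000000 per library) was above 0 in at least 1 library. This gave 84 members among 88 chloroplast rows and 27655 genes in all. RNA was sequenced from seedlings at 10 days of age, kept at 22 °C in long days (16 h light, 8 h dark), in 2 groups of 3 libraries. One group was the wild type, WT (Col), and the other was h3.3ko;HTR5, called the mutant below, a line named for the loss of the histone variant H3.3 and for HTR5, an H3.3 gene. The sources used here give neither how that line was built nor whether the 3 libraries of a group came from separate plants, so the p-values reflect the spread among libraries, which may be technical. The 3 genes AT5G10980, AT4G40030 and AT4G40040, annotated as H3.3, did not overlap between the groups. AT5G10980 lay at 289 to 324 TPM in the wild type and at 3.19 to 5.20 TPM in the mutant, AT4G40030 at 309 to 331 TPM against 148 to 155 TPM, and AT4G40040 at 403 to 423 TPM against 290 to 298 TPM.

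The chloroplast genome of plants is a small circle inherited from a cyanobacterial ancestor. It encodes core subunits of the photosynthetic complexes, the large subunit of Rubisco, and part of the plastid's own transcription and translation machinery, while most plastid proteins come from the nucleus. Its genes are often transcribed together in clusters and are read by a plastid-encoded RNA polymerase of bacterial type and by phage-type polymerases from the nucleus. In Arabidopsis the bacterial-type polymerase is known for transcribing photosynthesis genes such as psbA and rbcL, and the phage-type polymerases for transcribing rpoB and its neighbours.

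The table gives IDs with no gene names. Names were assigned by matching the span length behind each row's values to the protein-coding genes of the RefSeq chloroplast genome (assembly TAIR10.1, 154478 bases). This named 60 members from a length that a single gene has, all in the order of their positions, and 18 more from their length together with their place in that order. The remaining 6 are called by ID. All named members are protein-coding genes.

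Short stretches of the members the results turn on are printed 5′ to 3′ on the strand of the gene, from that genome. The first 2 lie before the start codons of the 2 members of highest mean TPM, psbA and rpl32, and hold TTGACA, a hexamer that bacterial-type promoters can have. Capitals mark the hexamer TTGACA and, for psbA, a TATACT element after it. No such second element was found after the rpl32 hexamer, and promoter use of either stretch was not tested.
psbA, Pltd:1530-1559, minus strand: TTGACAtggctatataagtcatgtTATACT
rpl32, Pltd:113407-113436, plus strand: TTGACAtccaattataccactgaaattttt
The psbA stretch begins 115 bases before the start codon and the rpl32 stretch 42 bases before it. Among the 78 named members, 8 (10.3%) held TTGACA within 250 bases before the gene on the gene's strand, and 14 (17.9%) held it on either strand.

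The next stretches show the longest run of A, in capitals, in psbA and in 4 of 8 members with a run of 10 or more and a mean TPM of at least 1. All 5 runs lie in coding sequence. Those of clpP, rpl16, petD and accD are not printed, and of these the accD run, of 13 bases, also lies in coding sequence.
rpoA, Pltd:78087-78116, minus strand: aacctaagAAAAAAAAAAAAAAcaaaagaa
rpoC2, Pltd:17918-17947, minus strand: cgagtagagAAAAAAAAAAAAAggattgaa
rpoB, Pltd:25674-25703, minus strand: cgataaggagAAAAAAAAAAtaggatcaaa
atpB, Pltd:54091-54120, minus strand: tcgatacgtgAAAAAAAAAAcctgggacgt
psbA, Pltd:1355-1384, minus strand: ataactagcactgAAAAccgtctttacatt
The run is 14 bases long in rpoA, 13 in rpoC2, 10 in rpoB and in atpB, and 4 in psbA.

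Replicate 1 of the mutant stood apart from the other 5 libraries in its chloroplast transcripts. The summed TPM of the 84 members was 1160, 1116 and 1171 in wild-type replicates 1 to 3, and 3155, 991 and 1029 in mutant replicates 1 to 3. Chloroplast transcripts thus made up 0.316% of all TPM in mutant replicate 1 and 0.0991% to 0.117% in the others. Whole reads could be recovered from the TPM values (see the processing notes): 16279 of 14054848 reads came from the members in mutant replicate 1, against 4098 to 4773 of 13796209 to 14502191 reads in the other libraries. Over the chloroplast genes with 10 or more reads, counts of mutant replicate 1 differed from those of the other mutant libraries by a chi-square of 37.0 and 31.8 per degree of freedom, whereas mutant replicates 2 and 3 differed by 2.08 and wild-type pairs by 1.29 to 1.56. Over all genes the same measure was 3.17 and 2.57 for mutant replicate 1 against the other 2, and 2.19 between those 2. For wild-type replicate 1 against the other 2 wild-type libraries it was 3.80 and 3.50, and 2.09 between those 2. Over all genes, mutant replicate 1 thus did not stand out in this measure. These values describe libraries whose difference was known when the members were chosen, and they set the spread against counting error only. In bulk tissue, fewer cells of a type and less RNA per cell cannot be told apart.

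Few other transcripts moved with it. Of the 19013 genes whose mean TPM reached 1, 43 (0.226%) were at least 2-fold higher in mutant replicate 1 than in every other library, and 36 of these 43 were chloroplast genes. The other 7, which were named after their values were seen, were 6 nuclear genes and 1 mitochondrial one. The mean TPM counted mutant replicate 1, and the nuclear genes AT1G24793, AT4G09200, AT4G33735 and AT5G09805 would not have reached 1 without it. AT2G01021, which starts 625 bases after an annotated ribosomal RNA gene of chromosome 2, had 186 TPM there and 10.97 to 30.3 TPM in the other libraries. The mitochondrial ID ATMG00030 had 187 TPM there and 50.3 to 69.2 TPM elsewhere. Mitochondrial IDs summed to 0.0305% of all TPM in mutant replicate 1, to 0.0154% and 0.0162% in the other 2 mutant libraries and to 0.0104% to 0.0121% in the wild type. The 20 mitochondrial IDs of mean TPM at least 1 had a median ratio of mutant replicate 1 to the mean of the other 2 mutant libraries of 1.045, and 6 were highest in it. Markers of shoot and root put the label of seedlings to the test. The 4 shoot markers, among them light-harvesting protein genes, summed to 54207 to 58769 TPM in the wild type and 61599, 59059 and 61440 TPM in mutant replicates 1 to 3; LHCA1 was higher by limma (adjusted p = 0.0235) and the other 3 did not pass, while voom on the recovered reads gave 2 higher, LHCA1 and RBCS1A (adjusted p of 0.00121 and 0.00755). The 4 root markers summed to 2034 to 2059 TPM in the wild type and 1818, 1989 and 1854 TPM in the mutant, and none passed (1 had an unadjusted p under 0.05, and voom gave 1 lower). Both of these were PYK10, which made up most of the sum. It read 1927 to 1947 TPM in the wild type and 1708, 1881 and 1737 TPM in the mutant. The log2 fold change was -0.075 for CASP1, 0.052 for SCR and 0.032 for SHR. The 3 floral organ markers were each under 1 TPM in every library. The part of these transcripts in the chloroplast levels of mutant replicate 1 was not tested.

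**Figure D1:**
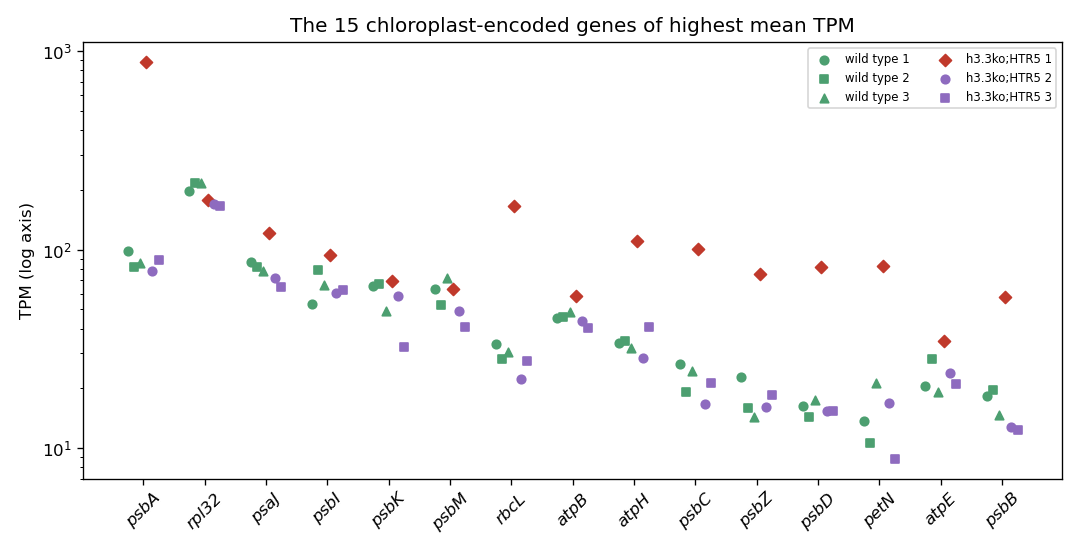
TPM (log axis) in each of the 6 libraries for the 15 chloroplast genes of highest mean TPM; green symbols are wild type, the red diamond is h3.3ko;HTR5 replicate 1 and purple symbols are its replicates 2 and 3. The diamond stands at 876 TPM for psbA and 166 TPM for rbcL, far above the other libraries, and among them for rpl32 (177 TPM) and psbM (63.5 TPM).

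Photosystem II splits water and holds 14 members, all with a mean TPM of at least 1 and so tested. Its reaction-centre protein D1 is encoded by psbA, the member of highest mean level, a rank that mutant replicate 1 set. In each of the other libraries the ribosomal protein gene rpl32 was higher than psbA. The psbA level was 98.3, 81.7 and 85.3 TPM in the wild type and 876, 78.4 and 88.2 TPM in mutant replicates 1 to 3. Mutant replicate 1 thus stood 10.5-fold above the mean of the other 2 mutant libraries (exact 95% counting interval 9.89 to 11.2, which covers counting error only), while those 2 lay within or just under the wild-type range. The gene alone took 27.8% of the summed chloroplast TPM in mutant replicate 1 and 7.28% to 8.57% in the others. It had 6000 reads there against 549 and 591 in mutant replicates 2 and 3, a difference that made up 44.8% of the extra chloroplast reads of replicate 1.

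The core antenna protein CP43 is encoded by psbC and the reaction-centre protein D2 by psbD. The psbC level was 26.6, 19.3 and 24.5 TPM in the wild type and 101, 16.7 and 21.3 TPM in the mutant. The psbD level was 16.3, 14.3 and 17.5 TPM in the wild type and 81.4, 15.4 and 15.4 TPM in the mutant. Replicate 1 was 5.29-fold above the other 2 mutant libraries for each of these neighbouring genes, whose spans overlap. The antenna protein gene psbB read 18.3, 19.7 and 14.6 TPM against 57.4, 12.8 and 12.3 TPM, a ratio of 4.56, with mutant replicates 2 and 3 below every wild-type library. The small-subunit gene psbZ read 22.9, 15.9 and 14.4 TPM against 75.5, 16.0 and 18.4 TPM.

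Not all photosystem II genes shared this. The genes psbI, psbK and psbM encode small subunits and rank among the 6 highest members. The psbI level was 52.9, 78.5 and 66.2 TPM in the wild type and 93.6, 60.1 and 62.8 TPM in the mutant, a ratio of 1.52 (interval 1.09 to 2.12). The psbK level was 65.7, 67.3 and 49.0 TPM against 69.2, 58.7 and 32.4 TPM, also a ratio of 1.52. For psbM, mutant replicate 1 (63.5 TPM) lay inside the wild-type range of 52.8 to 71.5 TPM, above 49.1 and 40.7 TPM in the other 2, and the interval of the ratio (0.933 to 2.12) held 1. Over the 14 genes the ratio ran from 1.41 to 10.5 with a median of 5.29.

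Photosystem I, which reduces ferredoxin, has 5 members. Its small-subunit gene psaJ was the highest, at 87.0, 82.1 and 78.1 TPM in the wild type and 121, 71.9 and 64.5 TPM in the mutant, a ratio of 1.77. The large core subunits behaved differently: psaB was at 8.97 to 9.56 TPM in the wild type and at 53.1, 7.84 and 9.20 TPM in the mutant, and psaA had a ratio of 4.84. The ratio was largest for the iron-sulphur subunit gene psaC, at 14.5 (interval 5.64 to 47.1), which rests on 36 reads against 3 and 2. The small-subunit gene psaI had 42 reads against 2 and 6, a ratio of 10.4 (interval 4.88 to 25.9).

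The cytochrome b6f complex passes electrons between the photosystems and has 6 members. Its highest was the small-subunit gene petN, at 13.7, 10.6 and 21.3 TPM in the wild type and 82.7, 16.8 and 8.80 TPM in the mutant, a ratio of 6.45 (interval 3.53 to 12.3). The cytochrome b6 gene petB and the subunit IV gene petD had ratios of 6.57 and 6.29, and petA, for cytochrome f, had 2.40. The small-subunit gene petL had 7, 3 and 3 reads in the wild type and 7, 6 and 10 in the mutant, so its ratio of 0.871 (interval 0.305 to 2.25) could not be separated from 1 at this depth.

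The chloroplast ATP synthase has 6 members, and its ratios were smaller, from 1.39 to 3.22. The beta subunit gene atpB read 45.4, 45.5 and 48.6 TPM in the wild type and 58.3, 43.7 and 40.2 TPM in the mutant, a ratio of 1.39 (interval 1.24 to 1.55). Its neighbour atpE, for the epsilon subunit, read 20.5, 28.2 and 19.2 TPM against 34.6, 23.9 and 21.0 TPM. The proton-ring subunit gene atpH read 33.9, 34.8 and 31.8 TPM against 111, 28.3 and 40.6 TPM, a ratio of 3.22. In all 6 genes mutant replicate 1 was the highest library.

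The large subunit of the carbon-fixing enzyme Rubisco is encoded by rbcL. Its level was 33.6, 28.1 and 30.5 TPM in the wild type and 166, 22.4 and 27.5 TPM in the mutant. Replicate 1 was 6.64-fold above the other mutant libraries (interval 5.99 to 7.40), which were both below all 3 wild-type libraries.

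The NDH complex, which feeds electrons back to the plastoquinone pool, has 9 named members, and all were low. The highest, ndhJ, read 9.40, 8.97 and 8.71 TPM in the wild type and 17.6, 2.54 and 10.3 TPM in the mutant. The ratio of replicate 1 to the other mutant libraries was 1.95 to 20.7 with a median of 2.75. Its upper end was ndhE, with 41 reads against 3 and 1 (interval 7.43 to 78.9), and ndhH, with 42 reads against 5 and 3 (ratio 10.6, interval 4.88 to 25.9). The genes ndhH and ndhF reached a mean TPM of 1 only with mutant replicate 1 counted.

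The 4 genes of the plastid-encoded RNA polymerase gave the lowest median ratio of the roles, 1.296, with a range of 0.972 to 1.33. The beta subunit gene rpoB read 18.6, 15.6 and 18.4 TPM in the wild type and 15.7, 17.3 and 15.01 TPM in the mutant. The groups overlapped, and the ratio of replicate 1 was 0.972 (interval 0.847 to 1.11) on 326 reads against 368 and 305. The ratio was 1.33 for rpoC1 (interval 1.08 to 1.65), 1.28 for rpoC2 (0.998 to 1.63) and 1.32 for rpoA (0.887 to 1.94). The polymerase genes took 1.12% of the summed chloroplast TPM in mutant replicate 1 and 2.76% to 3.26% in the other libraries.

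Of the 24 ribosomal protein members, 15 had a mean TPM of at least 1. The highest was rpl32, of the large ribosomal subunit, which at a mean of 190 TPM ranked second only to psbA. That order rests on mutant replicate 1, where psbA had 876 TPM, and in each of the other 5 libraries rpl32 was above psbA. The rpl32 level was 196, 215 and 217 TPM in the wild type and 177, 170 and 165 TPM in the mutant, so the groups did not overlap and replicate 1 lay beside the other mutant libraries (ratio 1.05, interval 0.875 to 1.27). Across the 15 tested genes the ratio ran from 0.921 to 4.76 with a median of 1.76. The upper end was rps14, of the small ribosomal subunit, which lies beside psaB and read 15.8, 13.1 and 11.6 TPM in the wild type and 47.6, 9.004 and 10.98 TPM in the mutant. Ribosomal protein genes made up 27.4% to 30.4% of the summed chloroplast TPM in 5 libraries and 12.6% in mutant replicate 1.

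Of the members, 9 have other roles, and 4 of them were tested. The highest, cemA, for an envelope membrane protein, read 13.2, 15.2 and 12.04 TPM in the wild type and 21.6, 13.0 and 18.1 TPM in the mutant, a ratio of 1.39. The protease subunit gene clpP had a ratio of 1.46, the acetyl-CoA carboxylase subunit gene accD had 3.81, and the photosystem I assembly gene ycf4 had 4.18. Of the unnamed IDs, ATCG00040 had the largest ratio, 7.34, with 140 reads against 15 and 23; matK, for an intron maturase, is the RefSeq gene left without an ID at its place in the order.

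**Figure D2:**
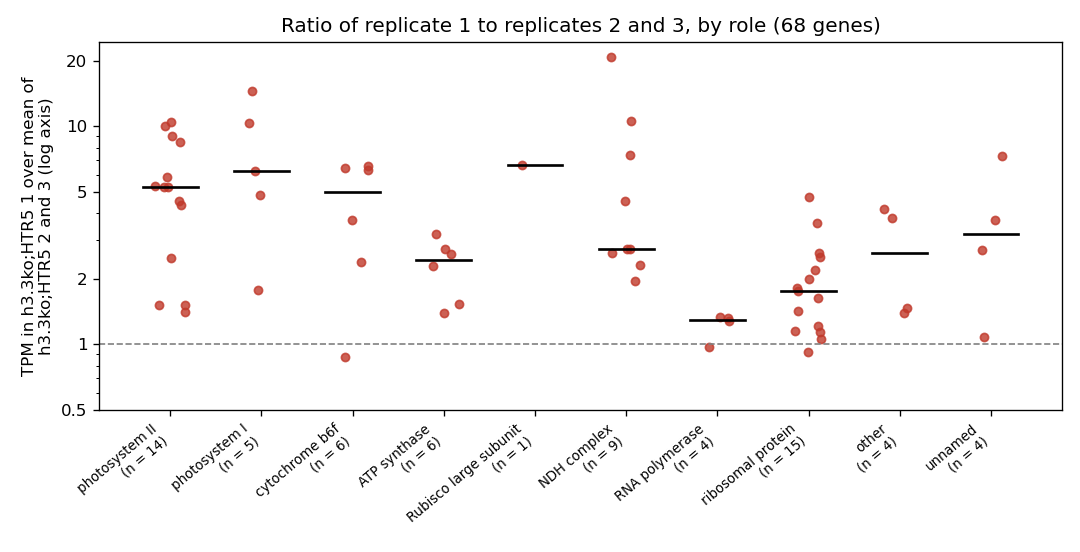
TPM in h3.3ko;HTR5 replicate 1 divided by the mean of replicates 2 and 3 (log axis), 1 point for each of the 68 tested chloroplast genes, grouped by role; bars are medians and the dashed line is a ratio of 1. The photosystem II points reach 10.5 with a median of 5.29, and the 4 RNA polymerase points lie between 0.972 and 1.33.

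**Figure D3:**
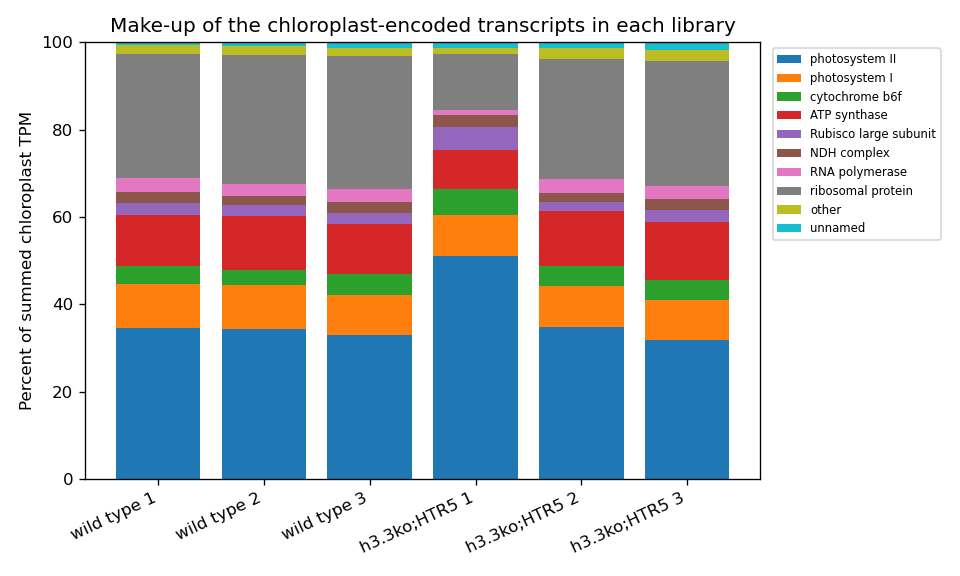
Percent of the summed chloroplast TPM taken by each role, with 1 stacked bar for each library. Photosystem II takes 31.8% to 34.8% in 5 libraries and 51.0% in h3.3ko;HTR5 replicate 1, and ribosomal protein genes take 12.6% there.

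The make-up of the chloroplast transcripts was close in the other 5 libraries. Photosystem II genes took 31.8% to 34.8% of the summed chloroplast TPM in those and 51.0% in mutant replicate 1. Of the 68 tested genes, 58 (85.3%) were highest in mutant replicate 1, against 10.7% of all tested genes, and 36 (52.9%) were at least 2-fold above every other library. The members were proposed with the level of this library known, so these counts are a description. The filter on mean TPM also counted mutant replicate 1, and ndhH, accD and ndhF would not have reached 1 without it. For 14 of the 68 genes the counting interval of the ratio held 1, and 8 of these were ribosomal protein genes and 3 RNA polymerase genes.

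Neighbouring genes on the same strand had like ratios in several places and unlike ones in others. The run of psbH, petB and petD, whose genes stand at most 300 bases apart, had ratios of 6.29 to 8.46, and its summed reads were 457 in mutant replicate 1 against 63 and 76 in replicates 2 and 3. The run psbJ, psbL and psbE had 5.32 to 9.01, and rps14, psaB and psaA had 4.76 to 6.24. Ratios were wide in runs of low genes. The run psaC, ndhE and ndhG had 2.75 to 20.7, ndhI, ndhA and ndhH had 2.62 to 10.6, and ndhJ, ndhK and ndhC had 1.95 to 7.41. The run atpI, rps2, rpoC2, rpoC1 and rpoB summed to 734 reads against 608 and 598, with a ratio that was 2.29 in atpI and 0.972 in rpoB, the opposite ends of the run. Such neighbours can share a transcript, so they are not independent observations.

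**Figure D4:**
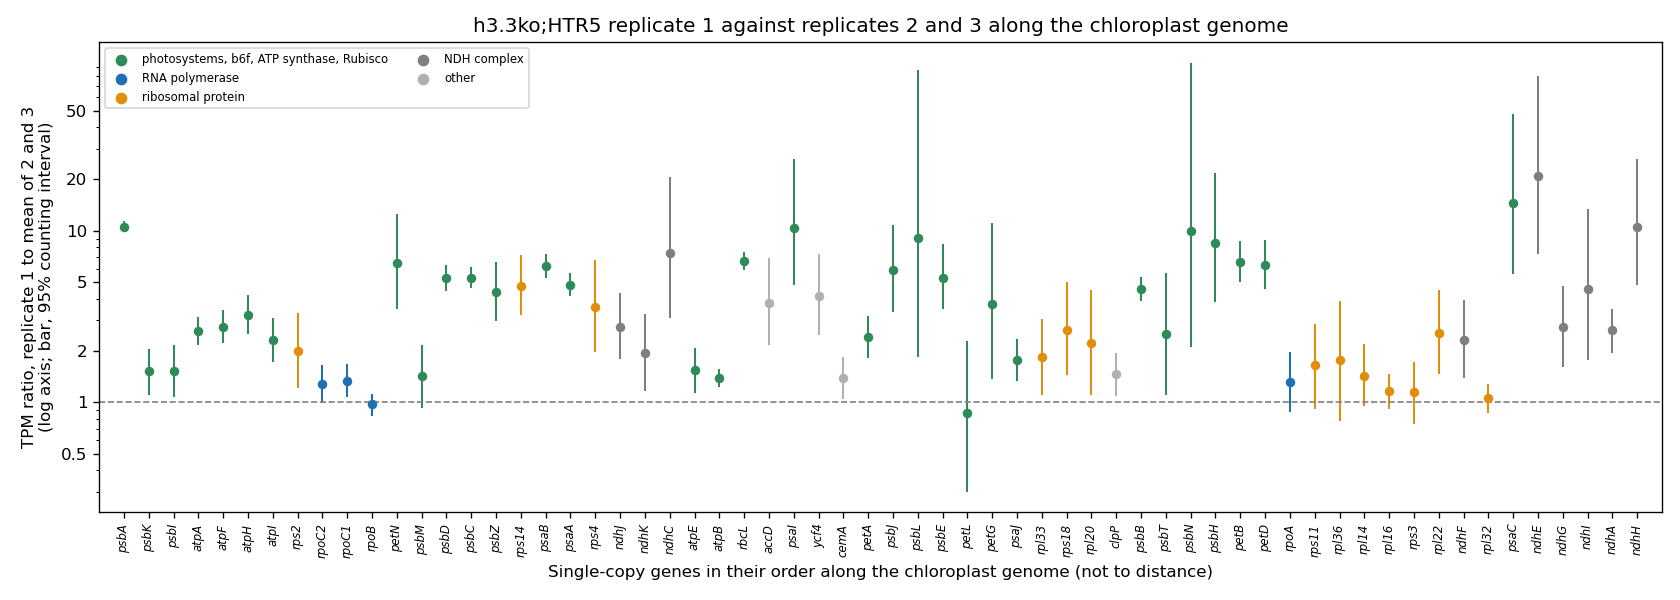
The same ratio (log axis) for single-copy genes among those tested, in their order along the chloroplast genome, not to distance; bars are 95% counting intervals and colours mark roles. The RNA polymerase genes and a run of ribosomal protein genes lie lower than most photosynthesis genes, rpoB at 0.972 and rpl16 at 1.16, against 5.29 for psbD and 6.57 for petB.

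Sequence features followed the ratio weakly. There are 8 tested members with a run of 10 or more A, a length chosen after the values were seen: rpoA, rpoB, rpoC2, atpB, clpP and rpl16 had ratios under 1.5, and petD (6.29) and accD (3.81) did not. Of the 56 others, 9 were under 1.5. The long runs printed above are all from members with ratios under 1.5. Across the 64 named and tested members, which share libraries and often transcripts, Spearman's rho with the log2 ratio of mutant replicate 1 to the mean of the other 5 libraries was -0.30 for the longest A run, 0.25 for GC content, -0.060 for span and -0.33 for the wild-type level. The wild-type level is itself part of the mean of the other 5 libraries. That shared term can make rho negative, so no link with level was drawn from -0.33. Of the tested members with TTGACA before the gene, psbA had a ratio of 10.5, petD 6.29, atpF 2.74, ndhF 2.32, rpl14 1.43 and rpl32 1.05. The ycf1 rows ATCG01000 and ATCG01130 also hold TTGACA there but were too low to be tested. They and psbA are the only members with a second element after it. ATCG01130 had 41 reads in mutant replicate 1 against 32 and 33 in replicates 2 and 3, so it did not share the rise of psbA. ATCG01000 had too few reads to tell.

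The mutant was then compared with the wild type by limma on log2(TPM + 1), with Benjamini-Hochberg adjustment over all 19013 genes of mean TPM at least 1 and a threshold of 0.05; 68 of the 84 members entered. In the mutant, 3 members were higher (4.41% of 68) and 1 was lower (1.47%), beside 3.70% higher and 8.32% lower among all tested genes, 12.0% in all, and 64 did not pass. The share of higher calls was thus near the background. The median log2 fold change of the 68 was 0.36, with 54 positive, against a median of -0.034 over all tested genes. Without mutant replicate 1, the median was -0.11 with 23 positive, 1 member was higher and 4 were lower, beside 2.60% higher and 5.59% lower (8.19% in all) among all tested genes.

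The lower gene was rpl32, which fell by 0.29 on the log2 scale (SE 0.05, adjusted p = 0.00483) and was lower in 3 of 3 mutant libraries than in every wild-type one. Without mutant replicate 1 it fell by 0.32 (adjusted p = 0.0106). With voom on the recovered reads the call was lost (adjusted p = 0.0671).

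The NDH subunit gene ndhG was higher in both fits. Its reads were 7, 8 and 5 in the wild type and 37, 14 and 13 in the mutant, with no overlap. Its log2 fold change was 1.16 (SE 0.30, adjusted p = 0.0328) and 0.74 without mutant replicate 1 (adjusted p = 0.0350). Leaving out any 1 wild-type library ended the call (adjusted p of 0.0626 without replicate 1, 0.0670 without replicate 2 and 0.101 without replicate 3).

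The ribosomal protein gene rpl16 read 10.7, 9.09 and 9.39 TPM in the wild type and 14.4, 12.01 and 12.9 TPM in the mutant, with no overlap. Its log2 fold change was 0.40 (SE 0.10, adjusted p = 0.0273), and 0.33 without mutant replicate 1, where the adjusted p was 0.0980. The call was also lost when wild-type replicate 2, wild-type replicate 3 or mutant replicate 3 was left out (adjusted p of 0.0887, 0.0836 and 0.0800). The unnamed ID ATCG00065 had 1, 2 and 5 reads in the wild type and 7, 6 and 7 in the mutant. Its log2 fold change was 1.28 (SE 0.34, adjusted p = 0.0382), with an adjusted p of 0.0957 without mutant replicate 1; of the 6 fits that leave out a library, the one without wild-type replicate 3 kept the call (adjusted p = 0.00132).

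The genes psaJ, psbM and psbN were also lower when mutant replicate 1 was left out, and were named after their values were seen. The photosystem I gene psaJ fell by 0.27 on the log2 scale (adjusted p = 0.0484) and the photosystem II gene psbM by 0.46 (adjusted p = 0.0492). The photosystem II gene psbN fell by 1.04 (adjusted p = 0.0243) on 3, 2 and 4 reads against 1 and 1. It lies on the strand opposite to its neighbours psbT and psbH, and no source used here says whether strand was used in counting, so reads of the 2 strands cannot be told apart. In the fit of all 6 libraries these 3 did not pass (adjusted p of 0.997 for psaJ, 0.229 for psbM and 0.874 for psbN).

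The 5 members with the largest ratios in mutant replicate 1, ndhE, psaC, ndhH, psbA and psaI, did not pass in 6 libraries (adjusted p of 0.395 to 0.931) or without that library (0.0917 to 0.642). For psbA the log2 fold change was 1.04 (SE 0.72, adjusted p = 0.395) with it and -0.084 (adjusted p = 0.619) without it. For rbcL, whose ratio was 6.64, it was 0.60 (SE 0.57, adjusted p = 0.554) with it and -0.29 (adjusted p = 0.131) without it.

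**Figure D5:**
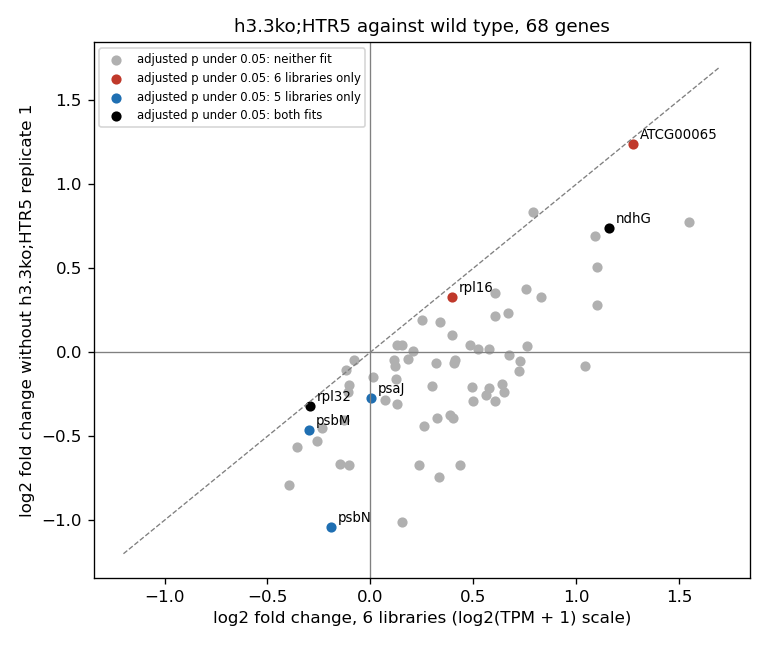
Log2 fold change of h3.3ko;HTR5 over wild type for the 68 tested chloroplast genes, from 6 libraries (x) and without h3.3ko;HTR5 replicate 1 (y); the dashed line marks equal values and colours mark which fit gave an adjusted p under 0.05. Most points lie below the line, psbA at 1.04 and -0.084, while rpl32 (-0.29 and -0.32) lies near it.

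The summed chloroplast TPM gave no call. The mean was 1149 ± 28.9 (SD, n = 3) in the wild type and 1725 ± 1239 (SD, n = 3) in the mutant, 1.501-fold higher (exact two-sided permutation test, p = 1; the smallest p that 3 against 3 allows is 0.1). Without mutant replicate 1 the mutant mean was 1010 TPM, 0.879 of the wild-type mean (exact two-sided permutation test, p = 0.2). That p is the smallest this test can give here, as both remaining libraries were below all 3 wild-type ones. Among the 68 tested members, 16 (23.5%) were below every wild-type library in both of these, against 24.4% of all tested genes, and 8 (11.8%) were above, against 16.4%. These shares are near the background. Over all 6 libraries, the groups did not overlap in 8 members that were higher in the mutant (11.8%, background 10.8%) and in 1 that was lower (1.47%, background 20.4%).

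The large inverted repeat of the chloroplast genome carries 2 copies of several genes, and 10 named members lie almost wholly in it. Of these, 9 had 0 to 2 reads in every library. The exception was 1 copy of rpl2, for a large-subunit ribosomal protein: ATCG01310 had 53, 51 and 67 reads in the wild type and 51, 58 and 53 in the mutant, while the other copy, ATCG00830, had 0 or 1. The ratio of mutant replicate 1 for ATCG01310 was 0.921 (interval 0.647 to 1.29). The sources used here do not say how reads that match both copies were counted, so the levels of duplicated genes are uncertain. The unnamed ATCG00890 and ATCG01250 have the same span of 1855 bases and IDs among those of repeat genes, but were not placed on the genome.

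At the edge of detection, 69 members were above 0 in all 6 libraries, 9 in 2 to 5 libraries and 6 in exactly 1. In 4 of these 6 that library was mutant replicate 1: the ycf1 copy ATCG01000 had 1 read, the ycf2 copy ATCG00860 had 2, rpl23 (ATCG01300) had 2 and the rps7 copy ATCG01240 had 1. The other rps7 copy, ATCG00900, had 1 read in wild-type replicate 2, and the rps12 row ATCG00905 had 1 read in mutant replicate 3. The rows ATCG00570, ATCG00840, ATCG00870 and ATCG01270 were listed at 0 in all 6 libraries. A count of 0 allows up to 3 reads in a library, for counting error only. Besides the 9 low named inverted-repeat members, 7 members had a mean TPM under 1 and were not tested: the ycf1 row ATCG01130 (25 to 41 reads), ccsA (0 to 9), rps16 (1 to 8), rps15 (0 to 5), rps19 (0 to 3), and the unnamed ATCG00890 (0 to 5) and ATCG01250 (0 to 3).

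Nuclear genes that act on chloroplast transcripts were read in the same fit. Of 41 listed genes for plastid transcription, RNA processing and RNA stability, 40 were tested; 2 were higher and 4 were lower in the mutant, with a median log2 fold change of -0.054 (17 of 40 positive) beside -0.034 over all tested genes. These counts stand beside 3.70% higher and 8.32% lower among all tested genes, and are near that background. The higher ones were CSP41A (0.14, SE 0.04, adjusted p = 0.0388) and CSP41B (0.13, SE 0.04, adjusted p = 0.0356), which encode chloroplast RNA-binding proteins. The lower ones were the RNA-binding protein genes CP29A (-0.23, SE 0.05, adjusted p = 0.0167) and CP29B (-0.15, SE 0.04, adjusted p = 0.0249), SIG5 (-0.20, SE 0.05, adjusted p = 0.0270), a sigma factor gene whose product guides the plastid polymerase to promoters, and HCF152 (-0.26, SE 0.07, adjusted p = 0.0319), whose product acts on transcripts of the psbB cluster. SIG5 read 146, 147 and 137 TPM in the wild type and 119, 125 and 129 TPM in the mutant, and HCF152 read 42.8, 37.9 and 41.3 TPM against 32.6, 32.98 and 35.7 TPM. In neither gene did mutant replicate 1 stand apart as it did in psbA. Without that library, CP29A was the 1 gene of the list that passed (adjusted p = 0.0495).

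Of 27 nuclear genes for subunits that join chloroplast-encoded ones, 3 were higher and none was lower, beside 3.70% higher and 8.32% lower among all tested genes. Of the 27, 10 had an unadjusted p under 0.05, beside 5093 of all 19013 tested genes. Voom on the recovered reads gave 7 higher and 0 lower, beside 956 higher and 1871 lower of 18988 genes. The median log2 fold change of the 27 by limma was 0.075, with 23 of 27 positive. Over all tested genes 7995 of 19013 were positive. The Rubisco small-subunit gene RBCS2B read 7574, 7950 and 7895 TPM in the wild type and 9525, 9280 and 9408 TPM in the mutant (log2 fold change 0.27, SE 0.03, adjusted p = 9.1e-04). RBCS3B, another small-subunit gene, rose by 0.36 (SE 0.04, adjusted p = 9.8e-04), and the photosystem I gene PSAD2 by 0.16 (SE 0.04, adjusted p = 0.0204). The RBCS3B call was lost under quantile normalization (0.069, adjusted p = 0.126), and the PSAD2 call was lost without wild-type replicate 3, mutant replicate 1 or mutant replicate 3 (adjusted p of 0.0560, 0.0803 and 0.0955). The RBCS genes are near-identical copies, so how reads were split among them is uncertain. The partner of these small subunits, rbcL, was lower than the wild type in mutant replicates 2 and 3 and higher in replicate 1, as given above.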

How the data were processed

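Per the labels, total RNA of 10-day seedlings was made into libraries with a kit whose RNA selection and strand use are not stated. Per the submitters' processing notes, fastp 0.20.1, HISAT2 and DESeq2 1.26.0 were used with TAIR10; no source used here names the counter. TPM of all genes in 6 libraries came as a single table deposited by the authors.

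From each library's TPM and the reference gene spans, whole reads were recovered for 22980 of 22985 expressed nuclear genes (99.98%, tolerance 0.02 reads), 13796209 to 14502191 reads per library. Chloroplast IDs were named from span lengths (tolerance 0.001) and order. limma 3.58.1 (lmFit, eBayes with trend) tested log2(TPM + 1) for genes of mean TPM at least 1, 3 against 3, adjusted over all of them, and was tested on simulated data. Fold changes understate changes of low genes. Ratios of mutant replicate 1 carry exact 95% intervals for counting error. Members and lists were chosen with earlier results of these data known. Genes named are the 15 highest, the highest of each role, those passing, those in 1 library or none, the 5 largest and 5 smallest ratios, and passing list genes. Alternatives: pseudocount, filter, 2 scalings, replicate block, array weights, voom, and each library left out. A result is not reported here.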

Additional observations from a re-analysis of the deposited data

How the results depend on the processing

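The count of chloroplast genes higher in the mutant was 3. It was 1 with no filter on low values, 6 with the replicate number as a block, and 0 to 6 when a library was left out: 0 without wild-type replicate 2, 1 without wild-type replicate 3, 1 without mutant replicate 1 and 6 without mutant replicate 2. Higher calls over all tested genes shifted too. They were 703 of 19013 in the main fit, 571 of 23139 with no filter and 547 with the block. They were 416 without wild-type replicate 2, 454 without wild-type replicate 3, 495 without mutant replicate 1 and 462 without mutant replicate 2. The count of lower chloroplast genes was 1, was 0 with voom, and ran from 1 to 4 with a library left out, with 4 without mutant replicate 1. Lower calls over all tested genes were 1582 in the main fit, 1871 with voom and 1063 without mutant replicate 1. The summed TPM ratio (log2 0.59) turned to -0.19 without mutant replicate 1 and ran up to 0.86 with other libraries left out. The log2 fold changes of psbA (-0.084) and rbcL (-0.29) turned negative in the same way, and reached 1.65 and 1.12 without mutant replicate 2. That of psaJ, 0.00 in 6 libraries, was -0.013 with array weights, -0.0003 without wild-type replicate 2, -0.036 without wild-type replicate 3 -0.27 without mutant replicate 1 and 0.18 without mutant replicate 3. That of psbN was 0.0012 without wild-type replicate 3, 0.24 without mutant replicate 2, 0.23 without mutant replicate 3 and -1.04 without mutant replicate 1. The cause was not tested.

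In the plastid gene expression list, higher calls (2) were 0 with no filter, 0 with the block, 4 with voom and 0 to 1 with a library left out. Lower calls (4) were 1 under quantile normalization, 1 under median-of-ratios scaling, 1 with the block and 0 to 3 with a library left out. Over all tested genes, higher calls were 703 in the main fit, 547 with the block and 956 with voom. Lower calls over all were 1582 in the main fit, 1171 under quantile normalization, 1245 under median-of-ratios scaling and 1304 with the block. Partner subunits had 3 higher calls, 7 with voom and 2 to 5 with a library left out, and 0 lower calls under every alternative. Same-numbered libraries did not deviate together (correlations -0.043, 0.024 and -0.012), so the numbers were not taken as pairs. Of the members called, rpl32 kept its side of the threshold under 12 of 13 alternatives, ndhG and rpl16 under 9 each and ATCG00065 under 5, with no change of direction. Of the partner subunits, RBCS2B passed under all 13 alternatives (log2 fold changes of 0.10 to 0.31), RBCS3B under 12 (0.069 to 0.40) and PSAD2 under 7 (0.089 to 0.20). Few reads limit most NDH and small-subunit genes.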
